A study of Mus musculus with 17 samples.

Results

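The regions described here were the DpnII fragments of the α-globin topologically associating domain (TAD) of the mouse that were contacted by the upstream CTCF sites HS-38 and HS-39. They were chosen by position alone: fragments of chromosome 11 (mm9) with their midpoint in the TAD, which tile 32080071 to 32244878, outside the exclusion zone of the viewpoint, read from the capture viewpoints named HS38 and HS39 in Ter119+ cells and HS38 in CD71+ cells. The domain held 404 of the 295448 DpnII fragments of chromosome 11. Outside the zones lay 401 fragments for each Ter119+ viewpoint and 391 for the CD71+ viewpoint. At least 1 contact was listed for 380 of 401 fragments from HS38, 380 of 401 from HS39 and 365 of 391 from HS38 in CD71+ cells, and the mean count was at least 5 for 363, 350 and 311 of them.

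Capture-C cuts fixed chromatin with DpnII, ligates ends that lie close together and counts the unique ligation products of a captured viewpoint, and here it was run on 17 libraries in 5 groups. QuadDel cells (n = 3) were homozygous for edits of the CTCF sites θ1 and θ2 and for a deletion that removed the HS+44 and HS+48 sites with the DNA between them, and WT cells (n = 3) carried none of these edits. Both were primary Ter119+ erythroid cells, selected from the spleens of adult C57BL/6J-background mice made anaemic with phenylhydrazine. The CD71+ cells were derived from embryonic stem cells through embryoid bodies, resemble primitive erythroblasts and all carried an mVenus tag on Hba-a1 (Hba-a1-YFP) on the sole α-globin allele, the other having been deleted. αP+G cells (n = 4) held an added α-globin promoter and gene between the enhancers and Hba-x, αPonly cells (n = 4) held the added promoter alone, and parental WT αYFP cells (n = 3) held no insert. For both inserts, reads of the added and native promoters fall on the same DpnII fragments. The CD71+ replicates were independent differentiations per the authors, and how many clones they came from was not given in the sources used here, so p-values measure the spread between these libraries.

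CTCF is a zinc finger protein that binds DNA at a directional motif and halts the ring complex cohesin, which is thought to extrude chromatin loops between sites that point towards each other. HS-38 and HS-39 lie at the upstream edge of the α-globin sub-TAD, and further CTCF sites lie on the side of the globin genes: θ1 between Hba-a1 and Hba-a2, θ2 after Hba-a2, and HS+44, HS+48 and HS+65/66 beyond all the globin genes. Between these edges are the erythroid enhancers, most of them in introns of Nprl3 (a subunit of the GATOR1 complex that restrains mTORC1), and the α-like globin genes: Hba-x encodes the embryonic ζ-globin, Hba-a1 and Hba-a2 encode adult α-globin, and Hbq1b and Hbq1a are θ-globin genes. Upstream of the viewpoints lie genes with other roles, among them Il9r (the interleukin-9 receptor), Snrnp25 (a protein of the minor spliceosome), Rhbdf1 (an inactive rhomboid protein) and Mpg (a DNA glycosylase of base excision repair). The comparison of QuadDel with WT asks how contacts of the upstream edge are distributed when downstream CTCF sites are lost, and the CD71+ comparison asks the same for an added α-globin promoter or gene.

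The sequences below are matches to the core of the CTCF motif. They are shown because the Ter119+ results turned on the sites edited or deleted in QuadDel and on the next site downstream, with HS-59 as an upstream site for comparison. Each is 40 bases of mm9, written 5′ to 3′ on the strand of the match, with the match in capitals, of which the opening CC, the AGG and the closing GGC were fixed and the letters between them free. Positions are, in the order shown, chr11:32117018-32117057 on the plus strand, then on the minus strand chr11:32186914-32186953, chr11:32200019-32200058, chr11:32221323-32221362, chr11:32221381-32221420 and chr11:32241280-32241319.
HS-59: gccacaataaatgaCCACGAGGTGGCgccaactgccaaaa
θ1: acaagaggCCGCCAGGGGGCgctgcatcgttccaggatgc
θ2: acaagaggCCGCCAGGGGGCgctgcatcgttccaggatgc
HS+44, first match: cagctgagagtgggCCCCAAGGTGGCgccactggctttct
HS+44, second match: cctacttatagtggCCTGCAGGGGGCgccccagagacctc
HS+65/66: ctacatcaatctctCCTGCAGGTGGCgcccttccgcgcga
The θ1 and θ2 stretches were identical and lay just before the annotated starts of Hbq1b and Hbq1a. Searched on both strands, the core had 20 matches in the TAD, 7 on the plus strand and 13 on the minus strand. A match was present in 14 of 33 TAD stretches of 5000 bp (42.4%) and in 13.9% of such stretches of chromosome 11. A match is a description of the letters and does not show that CTCF was bound.

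The HS38 viewpoint (32138079 to 32139000) lay in an untranslated exon stretch of Nprl3 and HS39 (32137176 to 32137426) in an Nprl3 exon that holds coding and untranslated sequence. The names are used as deposited. The order of the viewpoints along the chromosome follows these names, with HS39 further upstream. The HS39 viewpoint however falls in the region that the authors counted as HS-38, and this conflict was not settled. In each library 13619 to 21627 chromosome 11 interactions lay outside the zone for the Ter119+ viewpoints, and 6179 to 15672 for the CD71+ viewpoint. All levels are interactions per 100,000 of that total, and fold changes are log2 values with their standard errors (SE). Replicates differed beyond sampling noise in every group. Fragments that were themselves captured in the same panel were listed at 0 in every library, so contacts with them could not be read: in Ter119+ cells these were the other upstream viewpoint, the enhancers R1 and R2 and the fragments of the Hba-a1 and Hba-a2 promoters, and in CD71+ cells R1 and R2.

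With the deposited zone, most contacts of HS38 and HS39 on chromosome 11 lay within the TAD in WT Ter119+ cells. The share was 56.5%, 56.4% and 55.9% from HS38 across 3 WT libraries and 51.3%, 52.2% and 53.6% in the 3 of QuadDel. From HS39 it was 65.6%, 64.5% and 63.9% in WT and 58.9%, 59.8% and 62.8% in QuadDel. The groups did not overlap from either viewpoint, with mean differences of -3.91 and -4.11 percentage points. With the zone 5000 bp wider the WT means fell to 48.3% from HS38 and 47.2% from HS39, so the majority rested on fragments near the viewpoint. Over all chromosomes the mean HS38 share was 39.1% in QuadDel and 38.4% in WT, and that of HS39 was 45.8% and 46.8%, and in both cases the groups overlapped. The lower QuadDel share therefore held relative to chromosome 11 and not relative to all interactions.

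Within the sub-TAD, QuadDel held 26.4%, 27.4% and 29.1% of HS38 contacts and WT 32.0%, 32.0% and 30.6%. The upstream arm of the TAD took 18.7%, 18.6% and 18.3% of HS38 contacts in QuadDel and 17.0%, 17.3% and 18.1% in WT, and the downstream arm took 6.19%, 6.21% and 6.17% in QuadDel and 7.43%, 7.16% and 7.16% in WT. For all 3 shares the groups did not overlap, with QuadDel lower in the sub-TAD and downstream arm and higher in the upstream arm, and the same order was seen from HS39. Over all chromosomes the upstream arm alone was apart from both viewpoints, while the sub-TAD share (20.7% in QuadDel and 21.5% in WT from HS38) and the downstream arm overlapped. When the zone took out just the fragments that it holds whole, none of these HS39 shares was apart, and the HS38 upstream arm overlapped too.

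**Figure D1:**
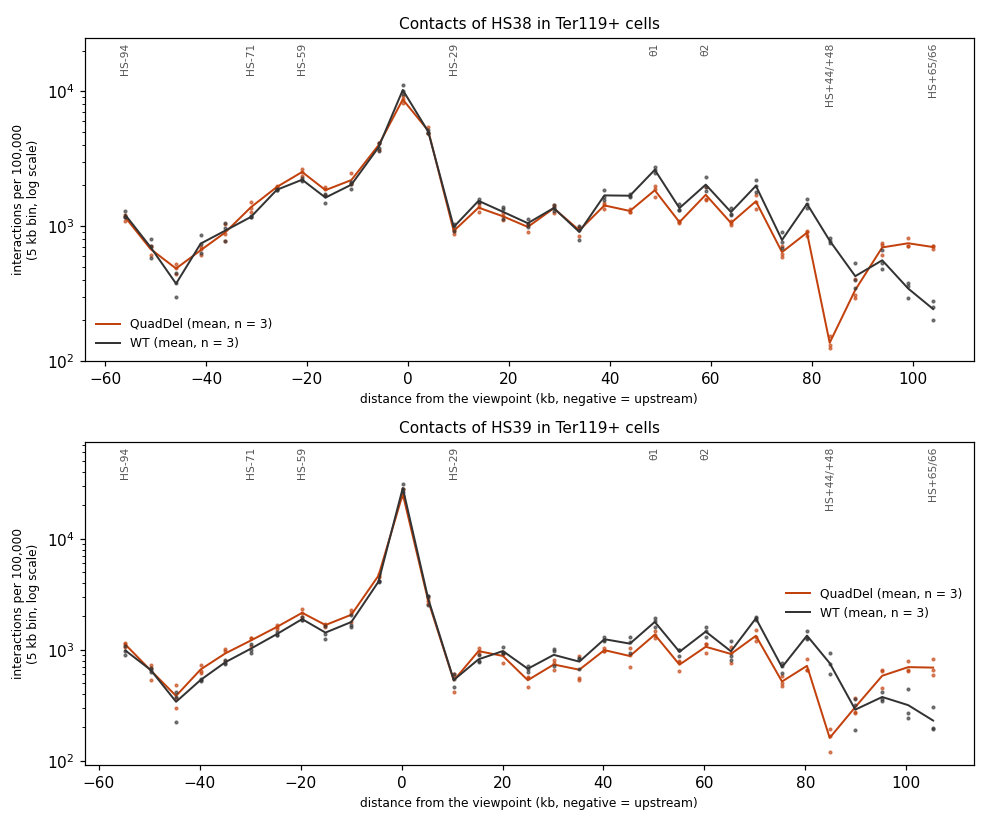
Contacts of HS38 and HS39 along the TAD in Ter119+ cells, as interactions per 100,000 on a log axis in 5000 bp bins by distance from the viewpoint, with a line for each group mean and dots for libraries. QuadDel lies below WT at the HS+44/+48 bin and above it in both bins around HS+65/66.

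The QuadDel and WT profiles differed most at the far downstream end of the TAD. Contacts with the HS+44/+48 region fell, contacts with the HS+65/66 region rose, and contacts with the globin genes fell by a smaller amount, from both viewpoints. Tested with edgeR's quasi-likelihood test and Benjamini-Hochberg adjustment, 9 of the 15 windows that tile the TAD passed an adjusted p of 0.05 from HS38, 3 higher and 6 lower in QuadDel, against 46.7% of all windows tested on chromosome 11 for that viewpoint. From HS39 it was also 9 of 15, 3 higher and 6 lower, against a background of 50%. These shares are not far above the background, which outside the TAD was nearly all higher in QuadDel: 19 of 45 windows were called from HS38, 18 of them higher, and 17 of 37 from HS39, all 17 higher. Over the whole chromosome 35% of windows were called higher and 11.7% lower from HS38, and 38.5% and 11.5% from HS39. The TAD held 6 of the 7 windows called lower from HS38 and all 6 from HS39.

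**Figure D2:**
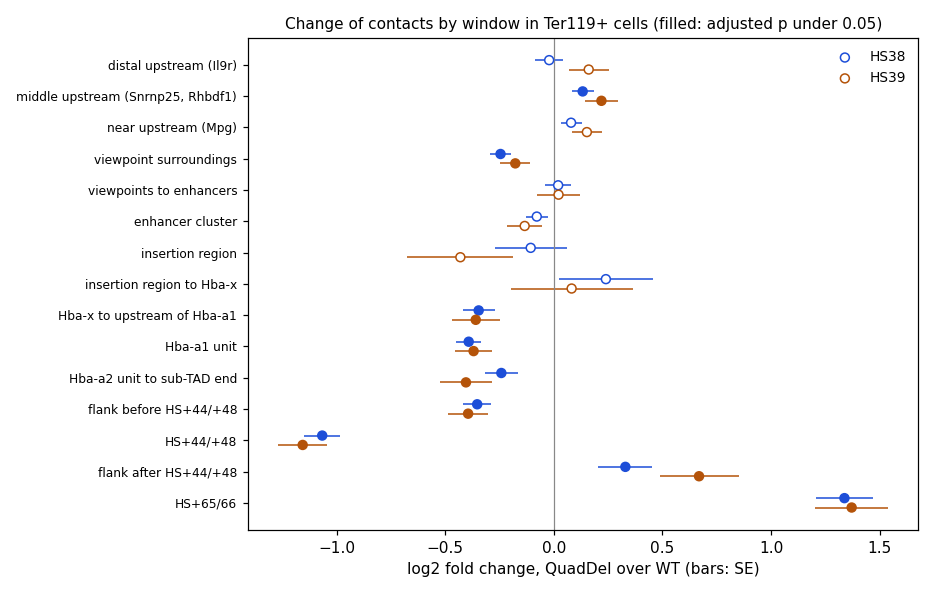
QuadDel against WT difference (log2, with SE bars) in each of the 15 TAD windows from HS38 and HS39, with filled symbols for an adjusted p under 0.05. The HS+44/+48 window sits at -1.07 and -1.16 and the HS+65/66 window at 1.34 and 1.37.

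At the HS+44/+48 window (32215333 to 32227686), HS38 had 1184, 1156 and 1220 interactions per 100,000 in QuadDel against 2574, 2409 and 2473 in WT. Every QuadDel library lay below every WT library. The change was -1.07 (SE 0.08, edgeR adjusted p = 1.17e-26). From HS39 the window had 956, 983 and 1138 in QuadDel and 2212, 2482 and 2149 in WT, a change of -1.16 (SE 0.11, edgeR adjusted p = 2.19e-14), again with no overlap.

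Inside that window, counts nearly vanished over 9 neighbouring fragments (32220920 to 32224324), picked because their QuadDel counts were under 0.4 of the WT counts, so that these values are a description. HS38 had 11, 9 and 11 counts there in QuadDel and 109, 118 and 139 in WT, and HS39 had 9, 14 and 9 in QuadDel and 79, 130 and 109 in WT. The QuadDel level was 8.40% of WT from HS38 and 10.6% from HS39. The stretch begins with the fragment that holds both HS+44 matches printed above, and DNA between HS+44 and HS+48 was removed in QuadDel, so fewer contacts and absent sequence cannot be told apart there. Fragments of the window outside the stretch had 1133, 1112 and 1149 per 100,000 from HS38 in QuadDel and 1903, 1766 and 1833 in WT, a difference of -0.70 (SE 0.09), and -0.80 (SE 0.12) from HS39. The lower level thus reached beyond the fragments at or near 0.

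Single fragments were tested as well. From HS38, 18 of 363 tested TAD fragments were called, 6 higher and 12 lower, against 5.33% of all tested chromosome 11 fragments (2.42% higher and 2.91% lower). From HS39, 13 of 350 were called, 4 higher and 9 lower, against 3.53% (1.09% higher and 2.45% lower). Of the tested fragments of the deleted stretch, 7 of 7 were called lower from HS38 and 6 of 7 from HS39. The stretch was picked by its low QuadDel counts and holds removed DNA, so these calls are a description. They make up 7 of the 12 lower calls from HS38 and 6 of the 9 from HS39. The median change over all tested TAD fragments was -0.08 from HS38 and -0.06 from HS39.

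The fragment with the smallest p from HS38, 32222955 to 32223357, had 0, 0 and 1 counts in QuadDel and 23, 17 and 22 in WT (-5.55, SE 0.76, edgeR adjusted p = 9.29e-07), and its counts from HS39 were 1, 1 and 1 in QuadDel and 8, 21 and 21 in WT. Its neighbour 32222793 to 32222954 was at 0 in all 3 QuadDel libraries from HS38 and had 7, 14 and 14 counts in WT, which is at least 11.9-fold lower when QuadDel is set to a floor of 3 counts over the group. The fragment with both HS+44 matches, 32220920 to 32221718, had 7, 4 and 7 counts from HS38 in QuadDel and 24, 21 and 26 in WT (SE of the log2 change 0.42, edgeR adjusted p = 0.00104). From HS39 that fragment had 7, 8 and 7 in QuadDel and 13, 15 and 21 in WT, a difference of -1.05 that did not pass (edgeR adjusted p = 0.17). All fragments named in this paragraph lie in the picked stretch, so their p-values cannot tell fewer contacts from absent sequence.

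The gain lay further downstream, before Sh3pxd2b (an adaptor protein of podosomes), whose annotated start falls outside the TAD. At the HS+65/66 window (32235768 to 32244878), HS38 had 1272, 1348 and 1260 interactions per 100,000 in QuadDel and 433, 511 and 577 in WT (1.34, SE 0.13, edgeR adjusted p = 6.11e-19). HS39 had 1477, 1112 and 1145 in QuadDel and 413, 395 and 621 in WT (1.37, SE 0.17, edgeR adjusted p = 9.34e-11). The QuadDel libraries were higher than all WT libraries in both. All 6 of the fragments called higher in the TAD from HS38 lay in this window, out of 12 tested there, and 3 of the 4 from HS39 did, out of 13 tested.

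The fragment with the printed HS+65/66 match, 32240738 to 32242084, had 24, 29 and 30 counts from HS38 in QuadDel and 7, 8 and 9 in WT (1.75, SE 0.38, edgeR adjusted p = 0.00147). From HS39 it had 24, 20 and 15 in QuadDel and 5, 6 and 8 in WT (1.69, edgeR adjusted p = 0.00816), and that call was lost without QuadDel replicate 1 (adjusted p = 0.0629) or without WT replicate 2 (0.0668). The adjoining fragment 32240360 to 32240737 had the smallest p from HS39, with 23, 26 and 19 counts in QuadDel and 5, 4 and 5 in WT (2.33, SE 0.41, edgeR adjusted p = 0.000683). The fragment 32242419 to 32243039 holds a match on the opposite, plus strand. It had 20, 19 and 16 counts from HS38 in QuadDel and 3, 5 and 8 in WT (1.72, SE 0.46, edgeR adjusted p = 0.0147), and from HS39 a difference of 1.47 with adjusted p = 0.0513. The HS38 call on it was lost with DESeq2 (adjusted p = 0.0501) and without QuadDel replicate 1 or 3.

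Between these windows, the flank after HS+44/+48 (32227687 to 32235767) rose too, by less. HS38 had 990, 1181 and 905 per 100,000 in QuadDel and 778, 888 and 793 in WT (0.33, SE 0.12, edgeR adjusted p = 0.0217), and HS39 had 996, 977 and 676 in QuadDel and 473, 482 and 708 in WT (0.67, SE 0.18, edgeR adjusted p = 0.00149). From HS39 QuadDel replicate 3 lay below WT replicate 3, and the call was lost with DESeq2 size factors (0.35, adjusted p = 0.0511). The HS38 call was lost with TMM factors (adjusted p = 0.0885), without QuadDel replicate 1 or 2 and without WT replicate 1 or 3. It was also lost with DESeq2 size factors (adjusted p = 0.200), with DESeq2 (0.0721) and with the zone 1000 bp wider (0.0521). No single fragment of this flank was called, of 14 tested from HS38 and 12 from HS39.

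**Figure D3:**
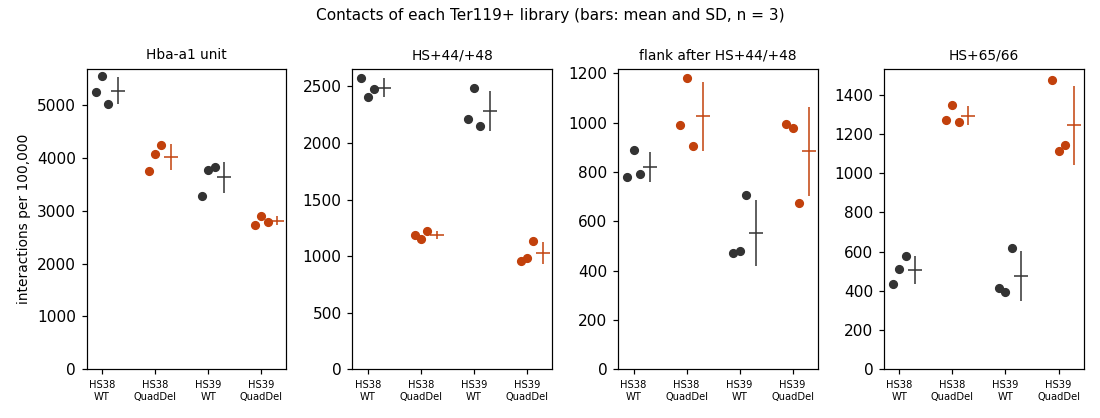
Interactions per 100,000 in each Ter119+ library (dots) at the Hba-a1 unit, the HS+44/+48 window, the flank after it and the HS+65/66 window, from HS38 and HS39, with bars for the mean and SD (n = 3) and axes that start at 0. QuadDel and WT dots do not overlap in any panel except the flank after HS+44/+48 from HS39.

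Contacts with the globin genes were lower in QuadDel. At the Hba-a1 unit, which also holds Hbq1b and the θ1 site, HS38 had 3755, 4063 and 4238 per 100,000 in QuadDel and 5242, 5540 and 5017 in WT (-0.39, SE 0.06, edgeR adjusted p = 3.81e-10). HS39 had 2731, 2903 and 2790 in QuadDel and 3282, 3766 and 3827 in WT (-0.37, SE 0.09, edgeR adjusted p = 0.000242). Neither pair of groups overlapped. These sums leave out the Hba-a1 and Hba-a2 promoter fragments, which were listed at 0.

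Hba-x and the stretch up to Hba-a1 fell to a like degree. HS38 had 1836, 2081 and 2040 in QuadDel and 2806, 2320 and 2455 in WT (-0.35, SE 0.07, edgeR adjusted p = 1.97e-05), and HS39 had 1345, 1440 and 1483 in QuadDel and 1661, 1834 and 1965 in WT (-0.36, SE 0.11, edgeR adjusted p = 0.00468). The HS39 call was lost when the TAD total was the library size (adjusted p = 0.0762) or the zone took out just the fragments that it holds whole (0.0648). The Hba-a2 unit, with Hbq1a and θ2, had 1822, 1682 and 2099 from HS38 in QuadDel and 1915, 2509 and 2150 in WT. There the HS38 groups overlapped, and the call on the change of -0.24 (SE 0.08, edgeR adjusted p = 0.00576) was lost with DESeq2 (adjusted p = 0.0947), without QuadDel replicate 1 or 2 and without WT replicate 2. It was lost too with the TAD total as library size (0.139) and when the zone took out just the fragments that it holds whole (0.377). From HS39 the Hba-a2 unit had 1151, 1252 and 1197 in QuadDel and 1339, 1692 and 1724 in WT (SE 0.12, edgeR adjusted p = 0.00354), with no overlap. That call was lost without WT replicate 2 (adjusted p = 0.0569) or with the TAD total as library size (0.0625). The flank before HS+44/+48, beyond the genes, had 2747, 2529 and 2788 from HS38 in QuadDel and 3641, 3353 and 3314 in WT (-0.35, SE 0.06, edgeR adjusted p = 6e-07), and 2605, 2364 and 2173 from HS39 against 3013, 3210 and 3191 (edgeR adjusted p = 0.00018).

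Among the promoter fragments of the TAD, those of the θ-globin genes stood out, and they hold the edited θ sites. Hbq1a, with the θ2 stretch printed above, had 24, 29 and 21 counts from HS38 in QuadDel and 48, 45 and 63 in WT (-1.12, SE 0.23, edgeR adjusted p = 0.000983). From HS39 it had 23, 18 and 13 in QuadDel and 34, 48 and 40 in WT (-1.10, SE 0.27, edgeR adjusted p = 0.0109), a call lost without QuadDel replicate 2 (adjusted p = 0.0899) or WT replicate 2 (0.139). Hbq1b, with the θ1 stretch, had 23, 26 and 29 counts from HS38 in QuadDel and 39, 36 and 57 in WT (-0.79, SE 0.25, edgeR adjusted p = 0.0465), a call lost in 12 of 17 alternatives, with adjusted p = 0.0999 when the replicate number was a block. From HS39 Hbq1b had 24, 36 and 14 in QuadDel and 24, 54 and 39 in WT, a difference of -0.59 that did not pass. Whether the edited letters changed how reads were placed on these 2 fragments was not tested.

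The other promoter fragments tested were not called from either viewpoint. Their differences from HS38 were 0.28 for Il9r, 0.16 for Snrnp25, 0.48 for Rhbdf1, 0.05 for Nprl3 and -0.18 for Hba-x, and from HS39 0.81, 0.51, 0.48, -0.17 and 0.02 in the same order. Mpg was at -0.24 from HS39 and also not called from HS38. Low counts limit these values, since in simulated data 61.2% of fragments changed 2-fold were recovered from HS38 and 48.9% from HS39. There 103 of 405 and 92 of 362 fragments were changed, all upward and with a preset spread, so recovery of fewer changes was not measured.

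Towards the enhancers the values were closer. The enhancer cluster had 6663, 6779 and 7026 per 100,000 from HS38 in QuadDel and 7012, 7244 and 7331 in WT, and 4173, 4389 and 4002 from HS39 in QuadDel and 4332, 4741 and 4725 in WT. The HS38 groups touched, since QuadDel replicate 3 lay above WT replicate 1, and the HS39 groups did as well. The difference was -0.08 (SE 0.05, edgeR adjusted p = 0.208) from HS38 and not called from HS39 (adjusted p = 0.172), but with TMM factors it was called lower from both, at -0.15 and -0.36. With DESeq2 size factors it was called lower from both too (-0.22 and -0.45). The same held with the zone wider by 5000 bp (-0.10 and -0.20) or 1000 bp (-0.10 and -0.20). From HS38 the sign turned with the TAD total as library size and when the zone took out just the fragments that it holds whole. The sum does not hold the captured enhancers R1 and R2. The windows from the viewpoints to the enhancers (0.02 from each viewpoint, turning to -0.06 and -0.20 with TMM factors), over the insertion region (-0.11 and -0.43) and from there to Hba-x (0.24 and 0.08, the latter -0.14 with TMM factors) were not called. The insertion region was however called lower from HS39 with TMM factors (-0.66, adjusted p = 0.0121), with DESeq2 size factors (-0.76, adjusted p = 0.0028) and without QuadDel replicate 1 (-0.81, adjusted p = 0.0209).

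The surroundings of the viewpoints (32135980 to 32139864) were lower in QuadDel, with 7477, 7841 and 8489 per 100,000 from HS38 and 10283, 9186 and 8758 in WT (-0.25, SE 0.05, edgeR adjusted p = 3.89e-06). The value depended on the nearest fragments: with 1000 bp more left out around the viewpoint, an alternative chosen after seeing the data, it was 0.20. The call was also lost without QuadDel replicate 1 (adjusted p = 0.0525) and when the zone took out just the fragments that it holds whole (0.0876). From HS39 the surroundings took 22716, 22993 and 27146 in QuadDel and 30100, 26861 and 25445 in WT, groups that overlapped (-0.18, SE 0.07, edgeR adjusted p = 0.0272, and 0.136 with the replicate number as a block), and with 1000 bp more left out the difference was -0.01. That call was lost too with DESeq2 (adjusted p = 0.204), without QuadDel replicate 1 or 2 and without WT replicate 1 or 2. The same held with the TAD total as library size (0.335) and when the zone took out just the fragments that it holds whole (0.592).

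Upstream of the viewpoints, changes were small. The middle upstream window with Snrnp25 and most of Rhbdf1 (32099821 to 32119983) had 6931, 6730 and 6593 from HS38 in QuadDel and 6020, 6256 and 6210 in WT (0.13, SE 0.05, edgeR adjusted p = 0.0262). That call did not hold with the replicate number as a block (adjusted p = 0.0759), with TMM factors (0.06, adjusted p = 0.343), with DESeq2 (adjusted p = 0.0838) or without QuadDel replicate 1 or 2 or WT replicate 1 or 2. With DESeq2 size factors the value turned to -0.01. From HS39 the window had 5816, 6186 and 5705 in QuadDel and 5067, 4939 and 5212 in WT (0.22, edgeR adjusted p = 0.0132), also without overlap, turning to -0.10 with DESeq2 size factors and losing its call without QuadDel replicate 2 or WT replicate 2. This call was lost as well when the zone took out just the fragments that it holds whole (adjusted p = 0.0675). Next to it, the near upstream window around Mpg had 8758, 8840 and 8732 from HS38 in QuadDel and 8023, 8259 and 8627 in WT, groups that did not overlap but with a difference of 0.08 that was not called (edgeR adjusted p = 0.187, and -0.06 with DESeq2 size factors), although it was called higher when the TAD total was the library size (0.18, adjusted p = 0.000574). The window was also called higher when the zone took out just the fragments that it holds whole (0.21, edgeR adjusted p = 0.0262). From HS39 that window had 9217, 9638 and 9590 in QuadDel and 8559, 8260 and 8778 in WT, a difference of 0.15 that was not called either (adjusted p = 0.0691, and -0.08 with TMM factors). It was called higher with DESeq2 (adjusted p = 0.0201), with the TAD total as library size (0.25, adjusted p = 0.00404) and with the zone 5000 bp wider (0.13, adjusted p = 0.0224). The distal window around Il9r differed by -0.02 from HS38 and 0.16 from HS39 (adjusted p = 0.819 and 0.156), the latter -0.07 with TMM factors. This distal window was called lower from HS38 with DESeq2 size factors (-0.16, adjusted p = 0.0435). From HS39 it was called higher with the TAD total as library size (0.26, adjusted p = 0.0379). Of the fragments upstream of the viewpoints, 0 of 133 tested were called from HS38 and 1 of 128 from HS39.

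In 5000 bp bins, 12 of 33 in the TAD were called from HS38, 2 higher and 10 lower, against 27.4% of the bins of chromosome 11 (21.9% higher and 5.48% lower), and 11 of 33 from HS39, 3 higher and 8 lower, against 30.6% (25.9% higher and 4.71% lower). The HS+44/+48 bin had 125, 152 and 131 per 100,000 from HS38 in QuadDel and 810, 755 and 774 in WT (-2.51, edgeR adjusted p = 1.94e-13), and without the deleted stretch its difference was -0.51 from HS38 (adjusted p = 0.371) and also -0.51 from HS39 (adjusted p = 0.317). The θ1 bin had 1655, 1894 and 1981 from HS38 in QuadDel and 2750, 2614 and 2478 in WT (-0.51, edgeR adjusted p = 3.71e-05) and was at -0.38 from HS39 (adjusted p = 0.0140, a call lost in 4 of 17 alternatives, among them without WT replicate 2 or 3). The θ2 bin was at -0.26 from HS38 (adjusted p = 0.0376, a call lost in 7 of 17 alternatives) and at -0.46 from HS39 (adjusted p = 0.0091, lost without WT replicate 2). The bins of the upstream sites HS-94, HS-71, HS-59 and HS-29 were not called from either viewpoint.

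How far a site's bin stood out from its neighbours was measured as the log2 of its level over the mean of the bins on either side. Bins held unequal numbers of fragments, such as 23 in the HS-94 bin and 12 in the next, and the measure does not adjust for this. In WT, HS-94 had the highest such excess from HS38, at 1.41, followed by θ1 at 0.78, θ2 at 0.62 and HS-59 at 0.34, and HS-29, whose bin holds the captured R1 fragment at 0, was at -1.74. The Hba-a1 promoter fragment, also at 0, lies in the bin before θ1, which raises the θ1 value. That of Hba-a2 lies in the θ2 bin, which lowers the θ2 value. In QuadDel the upstream values were 1.40 for HS-94 and 0.41 for HS-59. Leaving out each replicate in turn, the QuadDel minus WT difference from HS38 was -0.18 to -0.08 at θ1. It was 0.10 to 0.26 at HS-71 and -0.12 to -0.05 at HS-29. At θ2 the difference from HS38 lay within the spread between libraries. HS+44/+48 went from -0.28 in WT to -2.18 in QuadDel from HS38 and from -0.13 to -1.69 from HS39. HS+65/66 went from -0.05 to 0.20 from HS38 and from 0.08 to 0.28 from HS39. With 3 libraries against 3 the exact permutation test cannot go below p = 0.1, which both HS+44/+48 differences and the HS38 one at HS+65/66 reached.

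Of the 19 fragments that hold a match to the core, 2 were called higher and 3 lower from HS38, where 5.33% of all tested fragments were called, and 1 higher and 1 lower from HS39, where 3.53% were. At an unadjusted p under 0.05 there were 8 from each viewpoint. Among all tested TAD fragments 62 of 363 from HS38 and 65 of 350 from HS39 had such a p. On the rest of chromosome 11 these were 16 of 50 and 5 of 18. The median difference of the 19 fragments with a match was -0.16 from HS38 and -0.18 from HS39. The fragment of the HS-59 sequence printed above, 32116895 to 32117143, differed by -0.06 from HS38 (edgeR adjusted p = 0.961) and -0.53 from HS39 (adjusted p = 0.370). The calls among these 19 lay at edited or deleted sites and at HS+65/66.

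The 2 viewpoints sit close together and shared each library, so their profiles were compared within the 6 Ter119+ libraries. HS39 had a lower level than HS38 at the enhancer cluster in 6 of 6 libraries (mean log2 ratio -0.67, SD 0.07), and likewise at the Hba-a1 unit (-0.53), the Hba-a2 unit (-0.55) and Hba-x (-0.47). Near upstream, around Mpg, HS39 was higher in 6 of 6 (0.08, SD 0.05). Each of these had the smallest p that the exact sign-flip test allows with 6 libraries, and the smallest adjusted p over all 52 windows compared was 0.102, so 0% passed and none of the 52 is called. With 1000 bp more left out around each viewpoint the differences were -0.38 at the enhancers, -0.23 at Hba-a1 and 0.37 near upstream. At HS+44/+48 (-0.17, lower in 5 of 6) and HS+65/66 (-0.09, lower in 4 of 6) the sign turned with that zone, to 0.13 and 0.21.

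**Figure D4:**
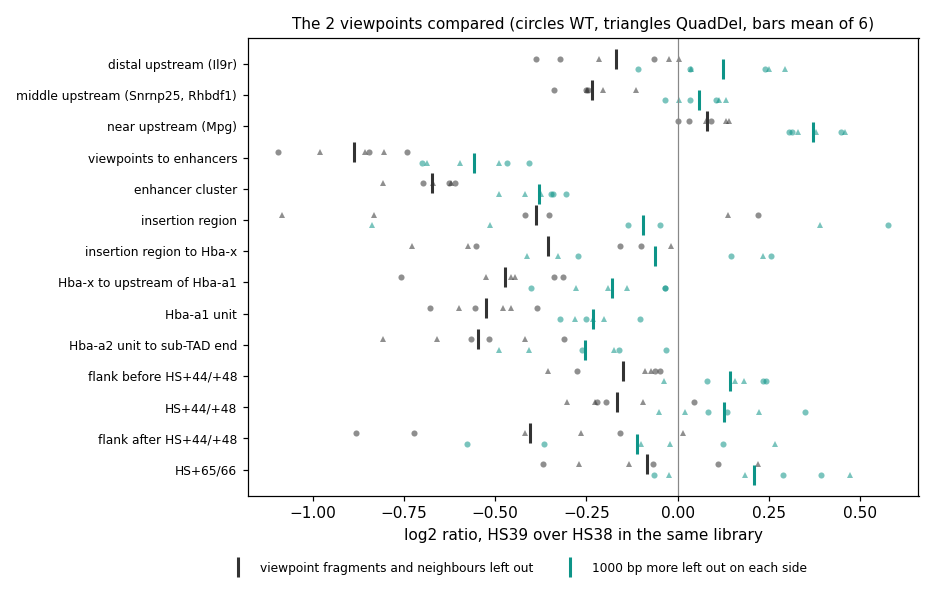
Log2 ratio of the HS39 level over the HS38 level for each TAD window except the viewpoint surroundings, with circles for WT and triangles for QuadDel libraries and a bar for the mean of 6; black leaves out the deposited zones and teal 1000 bp more. The enhancer cluster and globin windows lie below 0 with both zones, and the near upstream window lies above 0.

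Whether QuadDel changed the 2 viewpoints differently was tested as an interaction with edgeR's quasi-likelihood test. No window of 52 passed (0% called, smallest adjusted p in the TAD 0.486), and the interaction was -0.09 (SE 0.16) at HS+44/+48 and 0.03 (SE 0.24) at HS+65/66. Against the enhancer viewpoint R1, 1 of 51 windows (1.96%) passed: the distal upstream window around Il9r, whose QuadDel difference was lower from R1 by -0.52 (SE 0.11, edgeR adjusted p = 0.00166). Against R2, 3 of 48 (6.25%) passed, all in the TAD. The QuadDel difference from R2 was above that from HS38 at the Hba-a1 unit (0.39, SE 0.08) and the enhancer cluster (0.17, SE 0.04), and below it at the middle upstream window (-0.31, SE 0.10, edgeR adjusted p = 0.0462). With TMM factors the counts rose to 4, 14 and 11 TAD windows for HS39, R1 and R2, but the middle upstream difference of R2 turned to 0.17 and was not called (adjusted p = 0.532). That scaling moved the differences of all TAD windows downward for R1 and upward for R2. The R1 difference turned from 0.24 to -0.45 at the Hba-a1 unit and from 0.27 to -0.42 at Hba-x. These counts and directions thus depended on the scaling.

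In CD71+ cells, HS38 contacted the same regions, and no TAD fragment, bin or window was called in any of the 3 comparisons of inserts. With edgeR, 0 of 311 fragments, 0 of 33 bins and 0 of 15 windows passed in each, against backgrounds of 0% for fragments and windows and of 0% for bins, except 0.515% for bins between αPonly and WT αYFP. DESeq2 also called 0. At an unadjusted p under 0.05 there were 19, 12 and 19 fragments, 4, 3 and 2 bins and 2, 1 and 2 windows for αP+G against WT αYFP, αPonly against WT αYFP and αP+G against αPonly. In simulated data at this depth 86.7% of windows changed 2-fold between αP+G and WT αYFP were recovered, but 69.9% of such fragments and 60.4% of such bins. There 15 of 60 windows, 83 of 324 fragments and 48 of 187 bins were changed. All changes were upward and with a preset spread, so recovery of fewer or smaller changes was not measured.

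The TAD held 55.2% to 59.2% of HS38 contacts across the 11 libraries, with means of 58.1% in αP+G, 57.1% in αPonly and 57.0% in WT αYFP and overlapping groups. The downstream arm was apart between αP+G (5.65% to 5.96%) and WT αYFP (6.14% to 6.84%), with means of 5.80% and 6.42% and the smallest unadjusted p that the exact permutation test allows for 4 against 3, and it was apart over all chromosomes too. In αPonly it was 5.57% to 6.16%, which overlapped WT αYFP on chromosome 11 but not over all chromosomes. Around the insertion region itself HS38 had 841, 604, 865 and 790 per 100,000 in αP+G, 723, 631, 637 and 914 in αPonly and 722, 810 and 667 in WT αYFP. The 3 groups overlapped there, and the differences from WT αYFP were 0.08 (SE 0.17) and -0.01 (SE 0.17). The enhancer cluster ranged from 5549 to 6615 over all libraries, the Hba-a1 unit from 9303 to 10941 and the Hba-a2 unit from 2865 to 3941. Upstream, the distal window around Il9r ranged from 3755 to 4615 and the near window around Mpg from 9955 to 11235. The middle upstream window had 9479, 9586, 9661 and 9801 in αP+G, 8820, 9516, 8858 and 8866 in αPonly and 8941, 9137 and 9450 in WT αYFP, with an unadjusted p of 0.0461 between αP+G and αPonly (edgeR adjusted p = 0.553). The surroundings (376 to 690), the window from the viewpoints to the enhancers (3135 to 4209), that from the insertion region to Hba-x (327 to 565) and the flank after HS+44/+48 (457 to 727) had no unadjusted p under 0.05.

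Just downstream of the insertion, Hba-x and the stretch to Hba-a1 had 2845, 3020, 2311 and 3041 in αP+G, 2579, 2330, 2291 and 2732 in αPonly and 2699, 2386 and 2330 in WT αYFP. αP+G replicate 3 lay among the other groups. The αP+G difference was 0.19 from WT αYFP (unadjusted p = 0.0321, edgeR adjusted p = 0.776) and 0.17 from αPonly (unadjusted p = 0.0451, edgeR adjusted p = 0.553). The narrower 5000 bp bin with Hba-x had the smallest p of any bin between αP+G and αPonly, at 0.30 (edgeR adjusted p = 0.12), followed by the HS-71 bin with Snrnp25 at 0.29 (adjusted p = 0.12). That Hba-x bin also had the smallest p of the TAD bins between αP+G and WT αYFP, at 0.27 (unadjusted p = 0.0093, edgeR adjusted p = 0.539). The Snrnp25 promoter fragment had 19, 18, 24 and 27 counts in αP+G, 7, 5, 8 and 17 in αPonly and 14, 22 and 18 in WT αYFP, and its difference between the inserts was 1.06 (SE 0.33, edgeR adjusted p = 0.424).

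**Figure D5:**
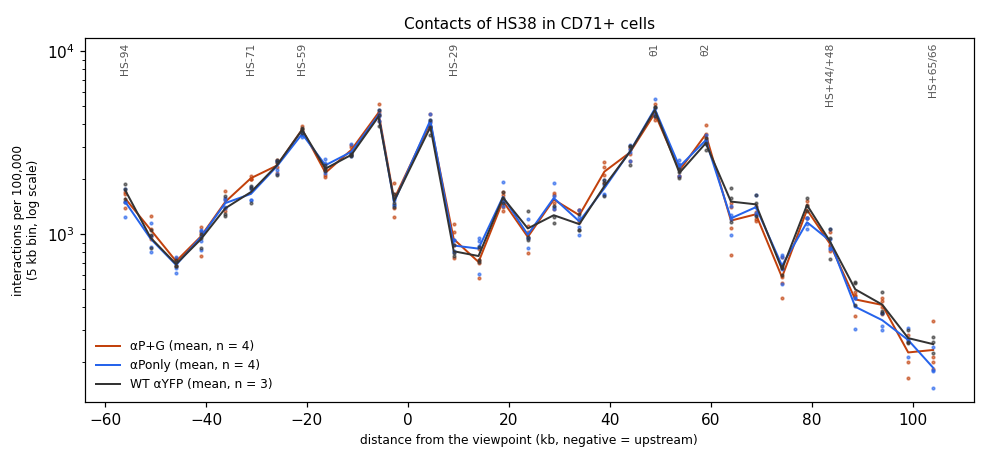
Contacts of HS38 along the TAD in CD71+ cells, as interactions per 100,000 on a log axis in 5000 bp bins by distance from the viewpoint, with lines for the group means and dots for libraries (αP+G n = 4, αPonly n = 4, WT αYFP n = 3). The 3 lines run close together over the whole domain.

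Beyond the genes, the flank before HS+44/+48 had 2246, 2192, 2278 and 2259 in αP+G, all below the 2617, 2342 and 2916 of WT αYFP, and 2699, 2589, 2285 and 2624 in αPonly (SE 0.09, unadjusted p = 0.0162, edgeR adjusted p = 0.459 for αP+G against WT αYFP). At HS+44/+48 αPonly had 2579, 2201, 2298 and 2239 and WT αYFP 2590, 2712 and 2795, a difference of -0.22 (SE 0.09, unadjusted p = 0.0193, edgeR adjusted p = 0.470) with no overlap, and αP+G had 2480, 2621, 2428 and 2637. HS+65/66 took 301 to 484 per 100,000 over all CD71+ libraries, and its 2 matched fragments had at most 6 and 9 counts in a library.

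The Hba-a1 and Hba-a2 promoter fragments were not captured in the CD71+ panel and could be read, though each pools the added and native promoters. Hba-a1 had 624, 341, 441 and 533 per 100,000 in αP+G, 373, 486, 308 and 510 in αPonly and 341, 332 and 370 in WT αYFP, and αP+G overlapped both other groups (0.48 against WT αYFP, SE 0.22, edgeR adjusted p = 0.657). Hba-a2 had 642, 380, 499 and 507 in αP+G, 313, 275, 362 and 537 in αPonly and 150, 428 and 485 in WT αYFP (0.43 against WT αYFP, edgeR adjusted p = 0.676). The θ-globin promoter fragments differed from WT αYFP by -0.06 (Hbq1a) and 0.01 (Hbq1b) in αP+G.

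Among single fragments, 32184706 to 32184781, just after Hba-a1, had the smallest p between αP+G and WT αYFP, with 21, 17, 24 and 24 counts in αP+G, 34, 16, 45 and 25 in αPonly and 45, 35 and 64 in WT αYFP (-1.08, SE 0.29, edgeR adjusted p = 0.278). It passed with the minimum mean count lowered to 1 (adjusted p = 0.0356) and without WT αYFP replicate 2 (-1.42, adjusted p = 0.00462). The bin 32200138 to 32204979 with the body of Hbq1a, which had the second smallest p of the bins in that comparison, passed with the replicate number as a block (-0.46, adjusted p = 0.0342) and without WT αYFP replicate 2 (-0.51, adjusted p = 0.0290). In the fit of all libraries its adjusted p was 0.539. With the replicate number as a block the same bin was called lower in αPonly than in WT αYFP (-0.43, adjusted p = 0.0475).

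HS-94 had the highest local excess of the CTCF sites in CD71+ cells too. It was at 1.29 in αP+G, 1.37 in αPonly and 1.54 in WT αYFP, θ1 at 0.86, 0.90 and 0.94, θ2 at 1.04, 0.87 and 0.78 and HS-59 at 0.72, 0.58 and 0.68. HS-71 was at 0.06 in αP+G, -0.21 in αPonly and -0.15 in WT αYFP. The αP+G libraries did not overlap αPonly at HS-71 and HS-59, or WT αYFP at HS-71 and HS-94. Each of these had the smallest unadjusted p that the exact permutation test allows for groups of these sizes. With neighbours on each side doubled, HS-71 was at -0.08 in αP+G and still apart from both groups, while αP+G and αPonly overlapped at HS-59.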

How the data were processed

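Capture-C was run by the authors on 17 libraries. Reads were trimmed with Trim Galore, merged, cut at DpnII sites, mapped by Bowtie (mm9 or a genome customised from it) and freed of duplicates. The deposited counts are raw counts of unique interactions per viewpoint and DpnII fragment, not normalized, and 0 columns lacked a sample. The other deposited tables hold viewpoint positions.

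Fragments that overlap the deposited exclusion zone were left out (1000 bp wider on each side in the CD71+ list), and the library size was the remaining chromosome 11 total. Fragments and 5000 bp bins with a mean count of at least 5, and windows with at least 20 (20000 bp bins outside the TAD), were tested with edgeR 4.0.16 (R 4.3.3; quasi-likelihood test, Benjamini-Hochberg, threshold 0.05), Ter119+ and CD71+ apart. Windows were adjusted over all α-globin viewpoints. Shares and ratios used exact two-sided permutation tests (Python 3.11.15, numpy 2.4.6, pandas 2.3.3, scipy 1.17.1; figures, matplotlib 3.10.9). The methods' DESeq2 (1.42.0) was an alternative. Scripts were tested on simulated data.

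Named were all windows, bins with a CTCF site, promoter fragments, and the up to 5 fragments and bins with the smallest p among those called, or the up to 2 where none was. Fragments with a motif match were added after values were seen. The regions and lists were chosen with earlier results of these data known. Sites were placed by the distances in their names. Same-numbered QuadDel and WT libraries correlated (deviations from group means) at 0.15, 0.28 and 0.25 from HS38 but -0.06, -0.29 and 0.02 from HS39, and CD71+ ones at 0.26, 0.26 and 0.11 for αPonly with WT αYFP, 0.04, 0.35 and 0.05 for αP+G with WT αYFP, and -0.18 to 0.42 for αP+G with αPonly. No source ties a number to a shared mouse, day or differentiation, so the block was an alternative, given where it changes a call. In mm9, 6 TAD fragments had an identical copy and held 0.397% to 1.79% of TAD counts. Intervals and floors cover counting error only.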

Additional observations from a re-analysis of the deposited data

Results flagged for a closer look

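Among 54 groups of 4 libraries examined in CD71+ cells, 3 held a library far from the others, and chance flags about 1 in 20 such groups. In the distal upstream window around Il9r, αP+G replicate 1 had 4050 interactions per 100,000 from HS38 and the other 3 replicates 4381 to 4390. In the middle upstream window with Snrnp25 and Rhbdf1, αPonly replicate 2 had 9516 and the others 8820 to 8866. The local excess of the HS-71 bin was 0.11 in αP+G replicate 2 and 0.04 to 0.05 in the others.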

How the results depend on the processing

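Scaling shifted the QuadDel differences: relative to the chromosome 11 total, the median over all windows shifted by -0.07 (TMM) and -0.14 (DESeq2 size factors) from HS38 and by -0.23 and -0.32 from HS39, and by 0.11 and 0.10 when the TAD total was the library size. The split of called windows into higher and lower went from 3 and 6 to 1 and 7 (TMM), 1 and 8 (DESeq2 size factors) and 4 and 5 (TAD total) from HS38, and to 2 and 9, 1 and 9 and 5 and 3 from HS39. The HS+44/+48 and HS+65/66 windows kept their sign and call in every alternative run for them, while the HS+44/+48 bin lost its call without the deleted stretch and some HS+65/66 fragments in single alternatives. Contacts near the viewpoints depended on the zone, and low counts limit single fragments. Causes of these shifts were not tested.

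From HS38, 10 fragments were called with DESeq2, 6 at a mean count of at least 20, 6 without the deleted stretch (chosen after seeing the data) and 11 at an adjusted p under 0.01, and 23 bins with DESeq2 size factors. From HS39 these were 3 fragments at a mean of at least 20, 6 without the stretch, and 18 bins with TMM, 20 with DESeq2 size factors, 7 when the zone took out just the fragments that it holds whole (the inside rule) and 6 at an adjusted p under 0.01. HS38 windows that moved or turned: distal upstream 0.0831 (TAD total) and 0.11 (inside rule), middle upstream -0.0112 and near upstream -0.0648 (DESeq2 size factors), surroundings 0.20 (1000 bp more), viewpoints to enhancers -0.0557 (TMM), -0.12 (DESeq2 size factors) and -0.0325 (1000 bp more), enhancer cluster 0.0252 (TAD total) and 0.0503 (inside rule), insertion region 0.0226 (inside rule). HS39 windows, with TMM and DESeq2 size factors: distal -0.0654 and -0.16, middle -0.0091 and -0.10, near upstream -0.0760 and -0.17, viewpoints to enhancers -0.20 and -0.29 (-0.0398 with 1000 bp more), insertion region to Hba-x -0.14 and -0.24.

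The TAD share difference was -5.10 (inside rule) and 0.724 (all interactions) percentage points from HS38, -2.10 and -1.06 from HS39, and -0.0297 between αPonly and WT αYFP with the zone 5000 bp wider. HS39 over HS38, with 5000 and 1000 bp more left out, was 0.13 and 0.12 (distal), 0.0678 and 0.0586 (middle), 0.23 and 0.37 (near upstream), -0.37 and -0.38 (enhancer cluster), 0.15 and 0.14 (flank before HS+44/+48), 0.14 and 0.13 (HS+44/+48) and 0.22 and 0.21 (HS+65/66). With TMM the interaction passed in 4 (HS39), 14 (R1) and 11 (R2) windows. With neighbours on each side doubled, the local excess difference from HS38 was 0.0437 at HS-29 and -2.19 at HS+44/+48. In CD71+ cells 1 fragment was called between αP+G and WT αYFP at a mean of at least 1. With the replicate number as a block, 1 bin was called between αP+G and WT αYFP and 1 between αPonly and WT αYFP, and in Ter119+ cells the calls on the HS38 middle upstream window, the HS39 surroundings and the Hbq1b fragment from HS38 were lost.

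Leaving out each replicate in turn gave 9 to 20 fragments and 5 to 9 windows from HS38 (lowest without QuadDel 1), 5 to 17 fragments and 5 to 13 bins from HS39 (lowest without WT 2), and 0 to 1 fragments and 0 to 1 bins between αP+G and WT αYFP (1 without WT αYFP 2). Differences ranged from -0.0758 to 0.0472 (distal upstream, HS38), -0.00989 to 0.0450 and -0.0749 to 0.0832 (viewpoints to enhancers, HS38 and HS39), -0.10 to 0.30 (insertion region to Hba-x, HS39) and -0.450 to 0.798 percentage points (TAD share, αPonly against WT αYFP).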
